A study of Mus musculus with 83 samples.

Results

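The Sfmbt2 feature of the mouse count table and every feature shorter than 150 bp that lies fully inside it make up the Sfmbt2 miRNA cluster. The rule found 119 short features, which are called members here, so that the cluster made up 120 of 32101 features in the table. Sfmbt2 lies on the plus strand of chromosome 2, from 10292137 to 10516880 on NCBIM37, and spans 224744 bp. All 119 members are annotated as miRNAs on the same strand. They lie between 10386914 and 10439906, a stretch of 53.0 kb that starts 94.8 kb downstream of the start of Sfmbt2. In GENCODE, all 119 were intronic in each of the 4 transcripts of Sfmbt2 that reach across them. In Sfmbt2-001 they sit in intron 10, which is 62.5 kb long.

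Sfmbt2 encodes a Polycomb group protein with MBT domains, and its intron carries a rodent cluster of miRNA copies that arose by repeated local duplication. The gene is imprinted and is known for expression from the paternal allele in extraembryonic tissue, where the cluster is needed for normal placental growth. A miRNA hairpin is cut by DICER to a duplex of about the read length sequenced here, 1 strand of which is held by an Argonaute protein such as AGO2 and guides it through the seed, bases 2 to 8. DNMT1, the enzyme deleted in the study, copies DNA methylation to the new strand after replication, and many imprints depend on it. Whether the imprint of Sfmbt2 does was not tested.

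The libraries held small RNA of 20 to 24 nt from mouse embryonic stem cells (ESCs) labelled E14 and from primordial germ cells (PGCs), the precursors of gametes. The study used ESCs in which Dnmt1 is flanked by loxP sites and a tamoxifen-induced Cre deletes it, grown in serum and LIF with or without feeder cells. Its text gives the strain of these ESCs as C57BL/6 and does not call them E14. Total small RNA was sequenced from cells titled control or Dnmt1 KO on days 1, 3, 6, 9, 11 and 25, with 3 libraries per day and genotype (36 in all), and 30 further libraries of days 1 to 11 carry the suffix R1. AGO2-bound small RNA came from 4 control and 4 Dnmt1 KO libraries, with no day in the labels (day 9 in the study's text), and PGC libraries, labelled C57BL/6, came from embryos at E13.5 and E14.5 (C57BL/6J with an Oct4-GFP transgene in the study's text), 1 per stage and sex, with 3 further R1 libraries. Whether replicates were separate cultures is not given, so p-values measure the spread between these libraries, which may be technical. Groups were taken from the titles. The genotype tag says the opposite of the title in 34 libraries, which are 24 of the R1 libraries, the 8 AGO2 libraries and 2 further ones, and in none of the 36 time course libraries without the suffix.

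Library totals were 870481 to 6239008 reads for days 1 to 11 and 521066 to 815523 reads on day 25. In AGO2 they were 11497724 to 25422978 for control and 1152390 to 11520126 for Dnmt1 KO, so depth differed between the genotypes there. Reads on the Dnmt1 feature were 18.1 to 95.02 RPM (reads per 1000000 library reads) in the time course and overlapped between genotypes on days 1, 3, 9 and 25. On day 6 they were higher in the Dnmt1 KO (41.6 to 48.0 against 23.1 to 35.1 RPM in control). On day 11 they were lower (18.1 to 25.6 against 29.9 to 31.96 RPM). These reads are fragments of 20 to 24 nt and do not check the deletion. All 12 miRNAs of an ESC list (the miR-290 and miR-302 clusters) had reads in every ESC group of the time course and in AGO2. The time course libraries had 110800 to 209800 RPM on them, and the PGC libraries without the suffix R1 had 12190 to 24380 RPM. The R1 libraries of PGCs had 8253 RPM (E13.5 female), 696.3 RPM (E13.5 male) and 22950 RPM (E14.5 male).

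Most of the cluster had no reads in the table, and most members without reads had no sequence of their own. Of the 119 members, 70 had no read in any of the 83 libraries, 26 had 1 to 20 reads and 23 had more than 20. A run of 41 neighbouring members, from 111.0 to 127.9 kb downstream of the start of Sfmbt2, had no read at all. The sequence of every member was cut into overlapping windows of 20 bases, and the exact copies of each window were counted on both strands of the 22 NCBIM37 chromosomes. Among the 70 members without a read, 53 had no window that occurs once in the genome. The other 17 had at least 1 such window, up to 83.3% of a member's windows, against at most 70.4% among members with reads. Among the 49 with a read, the number with no such window was 2, one of them Mir467a-1 with 169 reads. In the run of 41 it was 38. With windows of 24 bases the counts were again 53 of 70 and 2 of 49. A read from a repeated window has no single place on the genome, so that a member without reads is not shown to be absent from the cells. How reads with several equally good matches were counted is not given in the sources used here.

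**Figure D1:**
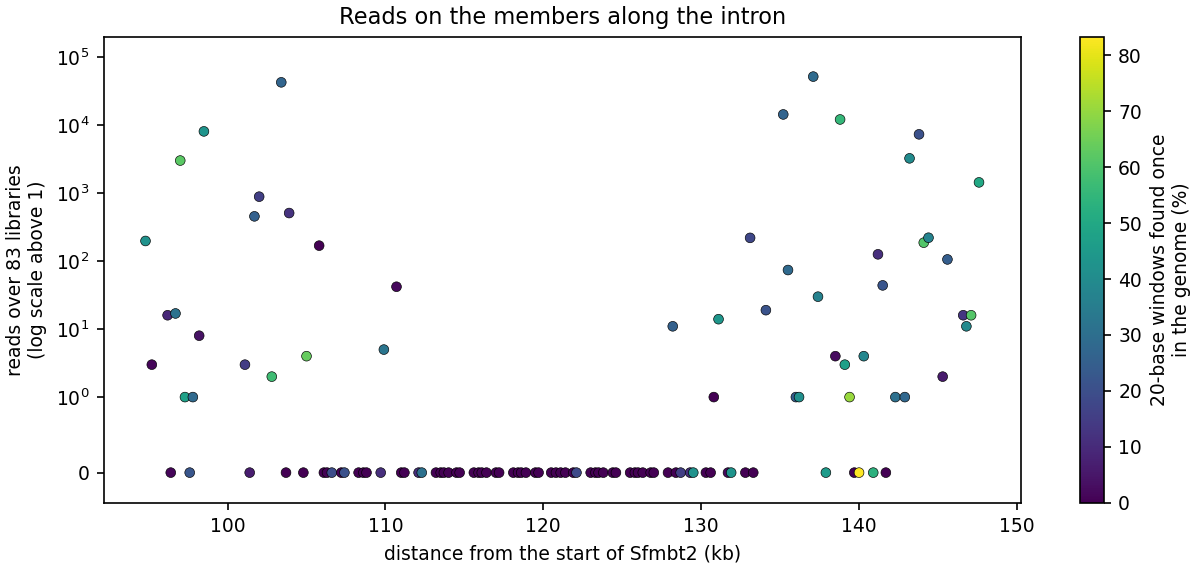
Each point is 1 of the 119 members, placed by its distance from the start of Sfmbt2 (x axis, kb) and by its reads summed over 83 libraries (y axis, log scale above 1), with colour for the percent of its 20-base windows found once in the genome. The 41 neighbouring members from 111.0 to 127.9 kb lie at 0, and members with reads lie on either side.

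By name the members fell into the miR-297 (5 members), miR-466 (23), miR-467 (13) and miR-669 (31) families, and 47 others, 46 of which carry clone names. Mature sequences were printed as examples of these families, and do not show why the members are hard to place on the genome. RefSeq (GRCm38.p6) sequences were at hand for none of the 119 members, and for 7 features of the same families that lie outside Sfmbt2. They are shown with the seed in capitals.

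mmu-miR-467f: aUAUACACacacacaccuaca

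mmu-miR-467g: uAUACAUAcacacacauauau

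mmu-miR-467h: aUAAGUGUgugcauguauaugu

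mmu-miR-466i-3p: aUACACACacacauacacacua

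mmu-miR-466j: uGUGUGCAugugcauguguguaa

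mmu-miR-466k: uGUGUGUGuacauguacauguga

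mmu-miR-669n: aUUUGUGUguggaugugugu

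The 7 seeds differ from one another. All 7 sequences are low in complexity. Purines and pyrimidines alternate at 18 of the 20 steps of miR-467f, at 20 of the 20 steps of miR-467g and at 20 of the 21 steps of miR-466i-3p, and less often, at 15 of 19 steps, in miR-669n. The table holds 11 features of these families outside Sfmbt2, of which 3 had any read. They had 6 reads in the 36 time course libraries together and 0 in AGO2, and none could be tested. Nearly all reads of these families in the table lay inside Sfmbt2.

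Reads on Sfmbt2 were almost all reads on its miRNAs. The members made up 99.07% of the reads on the Sfmbt2 feature in the time course (52331 member reads) and 99.86% in AGO2 (75134 member reads). The value of Sfmbt2 is therefore the summed value of the cluster and not a measure of the mRNA, and the remainder outside the members, 2.04 to 6.70 RPM in the group means of the time course, was too small to compare. A few members carried most of these reads. Mir467c, Mir467d and Mir467e had the highest levels per length, 1523 ± 665, 1034 ± 379 and 635 ± 242 RPKM (mean ± SD over 36 time course libraries), followed by Mir669c with 560 ± 195. Mir669o, Mir669l, Mir669e and Mir466n followed with 321, 288, 118 and 113 RPKM. These 8 passed a filter of 10 RPM in at least 3 of the 36 libraries and held 96.28% of the member reads. Mir4660 and Mir669h passed it in AGO2 only. Between 15.4% and 62.0% of the 20-base windows of these 10 members were single-copy, so that single members remain uncertain and family sums are given beside them.

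The difference between the genotypes had opposite directions on days 3 to 11 and on day 25. In the Dnmt1 KO, the summed level of the members exceeded the control from day 3 to day 11, by 1.37-fold on day 3 and 1.99-fold on day 11, while on day 25 it was 0.324 of the control. On day 1 the members summed to 569, 532 and 486 RPM in the control libraries and to 551, 576 and 594 RPM in the Dnmt1 KO libraries. The groups overlapped. On day 3 the control libraries had 551, 555 and 499 RPM and the Dnmt1 KO libraries 785, 698 and 709 RPM. On day 6 the values were 487, 423 and 456 RPM against 675, 604 and 636 RPM. Every Dnmt1 KO library lay above every control library on both days. On day 9 the control libraries had 319, 338 and 333 RPM and the Dnmt1 KO libraries 517, 483 and 528 RPM. On day 11 they had 215, 211 and 182 RPM against 383, 408 and 419 RPM, again without overlap. On day 25 the order was turned, with 394, 405 and 381 RPM in control and 124, 137 and 121 RPM in Dnmt1 KO. In bulk samples, fewer cells that express a miRNA and less of it per cell cannot be told apart.

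**Figure D2:**
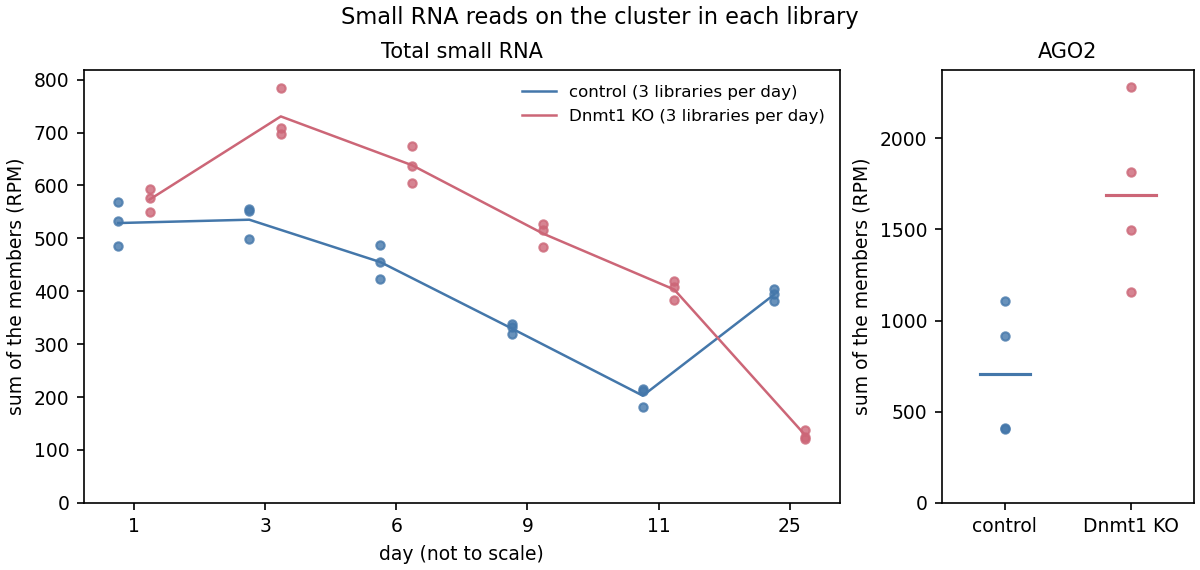
Summed level of the 119 members in each library (points, RPM) by day for control and Dnmt1 KO, with lines through the means of 3 libraries (left), and in the 4 AGO2 libraries per genotype with bars at the means (right). The Dnmt1 KO lies above the control on days 3 to 11 and in AGO2, and below it on day 25.

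Ordered by the mean sum, the highest groups were Dnmt1 KO on day 3 (731 ± 47.2 RPM, SD, n = 3), Dnmt1 KO on day 6 (638 ± 35.1) and Dnmt1 KO on day 1 (574 ± 21.98). The lowest were control on day 11 (203 ± 18.3) and Dnmt1 KO on day 25 (127 ± 8.47). Neighbours in this order overlapped from Dnmt1 KO on day 1 through control on days 3 and 1 and Dnmt1 KO on day 9 to control on day 6, and again between Dnmt1 KO on day 11 and control on day 25. The other neighbours did not overlap.

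The differences between genotypes were tested with limma on log2(RPM + 1) over 2582 features, with p-values adjusted by the Benjamini-Hochberg method over all of them. On day 1 Sfmbt2 differed by 0.03 on the log2 scale (SE 0.09, adjusted p = 0.947). None of the 8 tested members passed, where 3.8% of all features did. Among the 287 tested miRNA features, which include the 8 members, 14 did. No member had an unadjusted p under 0.05 and voom on reads called 0. The members' log2 fold changes lay between −0.07 and 0.35.

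On days 3 and 6 the difference was small, and 1 and 2 of the tested members passed. Sfmbt2 was higher in the Dnmt1 KO by 0.46 on the log2 scale on day 3 (limma, SE 0.09, adjusted p = 0.000838). Of the 8 members 1 passed, Mir467c (0.54, SE 0.15, adjusted p = 0.0246), where 4.49% of all features were called higher. Of the 287 tested miRNA features, 66 were called higher. The other 7 had values of 0.33 to 0.66 and adjusted p from 0.12 to 0.483. On day 3, 6 of 8 had an unadjusted p under 0.05, and voom on reads called 4. On day 6 Sfmbt2 had a log2 fold change of 0.38 (limma, SE 0.09, adjusted p = 0.00177), and Mir467c (0.44, adjusted p = 0.029) and Mir669c (0.52, adjusted p = 0.0258) passed. These were 2 of 8 members, where 13.7% of all features were called higher and the median of all features was itself 0.14. Of the 287 tested miRNA features, 96 were called higher on day 6. The call of Sfmbt2 on day 6 rested on single libraries. It was 0.24 (adjusted p = 0.124) without Dnmt1 KO replicate 1, 0.27 (adjusted p = 0.0715) without control replicate 2 and 0.27 (adjusted p = 0.0692) without Dnmt1 KO replicate 3, and no member passed when any of these, Dnmt1 KO replicate 2 or control replicate 3 was left out. On day 3 no member passed without control replicate 2 or without control replicate 3. Without a filter on low values Sfmbt2 did not pass on either day (0.42, adjusted p = 0.0971, and 0.33, adjusted p = 0.153).

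On days 9 and 11 most of the tested members were higher in the Dnmt1 KO than in the control of the same day. On day 9, 6 of 8 passed, where 12.3% of all features were called higher, and on day 11, 7 of 8 passed, where 6.27% were. Of the 287 tested miRNA features, 116 were called higher on day 9 and 92 on day 11. The median of the 8 members was 0.67 on day 9 and 0.99 on day 11, against 0.09 and −0.05 over all features. Sfmbt2 was higher by 0.74 (limma, SE 0.09, adjusted p = 2.83e-08) on day 9 and by 1.07 (SE 0.09, adjusted p = 2.09e-12) on day 11. Mir467c had 54.7, 57.5 and 36.3 RPM in the day 11 controls and 95.7, 99.1 and 104 RPM in the Dnmt1 KO. Its log2 fold change was 1.104 (SE 0.15, adjusted p = 3.29e-07). Mir669c, which had the largest value of the members on that day, stood at 28.8, 29.8 and 31.7 RPM in control and 63.2, 74.4 and 72.8 RPM in Dnmt1 KO. Its log2 fold change was 1.27 (SE 0.18, adjusted p = 3.59e-07). The means differed by 2.01-fold and 2.33-fold, without overlap between the libraries. Mir467d (0.98), Mir467e (1.01), Mir669l (0.86), Mir669o (1.02) and Mir669e (0.83) passed on day 11 as well. Mir466n, the only tested member of the miR-466 family, had 0.78 (limma, SE 0.28, adjusted p = 0.0777).

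The sums of the 4 named families were all higher in the Dnmt1 KO on day 11. The miR-467 family summed to 123 ± 15.8 RPM in the day 11 controls and 239 ± 9.08 RPM in the Dnmt1 KO, and the miR-669 family to 71.4 ± 5.03 and 148 ± 10.6 RPM (mean ± SD, n = 3). The miR-466 family had 5.65 ± 1.17 and 10.6 ± 1.64 RPM, and the miR-297 family had 1.502 ± 1.02 and 3.27 ± 0.693 RPM. None of these 4 sums overlapped between the genotypes on day 11, and how many of all features did not overlap was not counted. The miR-297 sum was near the floor. It had at most 9 reads in a control library, and control replicate 3 (0.412 RPM) lay under its floor of 3 reads (1.24 RPM). Its highest control value was 2.42 RPM and its lowest Dnmt1 KO value 2.47 RPM. The 47 others overlapped, with 1.22 ± 0.579 and 2.17 ± 1.32 RPM.

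On day 25 the cluster was lower in the Dnmt1 KO, and all 8 tested members passed, where 17.0% of all features were called lower. Among the 287 tested miRNA features, 108 were called lower. With voom, and with each day fitted alone, 5 of the 8 passed. Sfmbt2 stood at 394, 405 and 388 RPM in control and at 132, 141 and 123 RPM in Dnmt1 KO. The log2 difference was −1.47 (limma, SE 0.09, adjusted p = 9.40e-17). The largest difference of a member was that of Mir467d, with 69.9, 82.5 and 78.5 RPM against 24.1, 16.7 and 18.9 RPM (−1.80, SE 0.14, adjusted p = 1.33e-13). The smallest was that of Mir466n (−0.89, SE 0.28, adjusted p = 0.0107), which had 1 read in each Dnmt1 KO library, so that its fitted value depends on the pseudocount. Mir669e had no more than 3 reads in any Dnmt1 KO library, and the same holds for its value (−1.34). The median of the 8 members was −1.40, against 0.00 over all features. The miR-467 family went from 260 ± 9.48 RPM in control to 79.1 ± 7.27 RPM in Dnmt1 KO and the miR-669 family from 120 ± 11.4 to 43.7 ± 7.07 RPM.

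**Figure D3:**
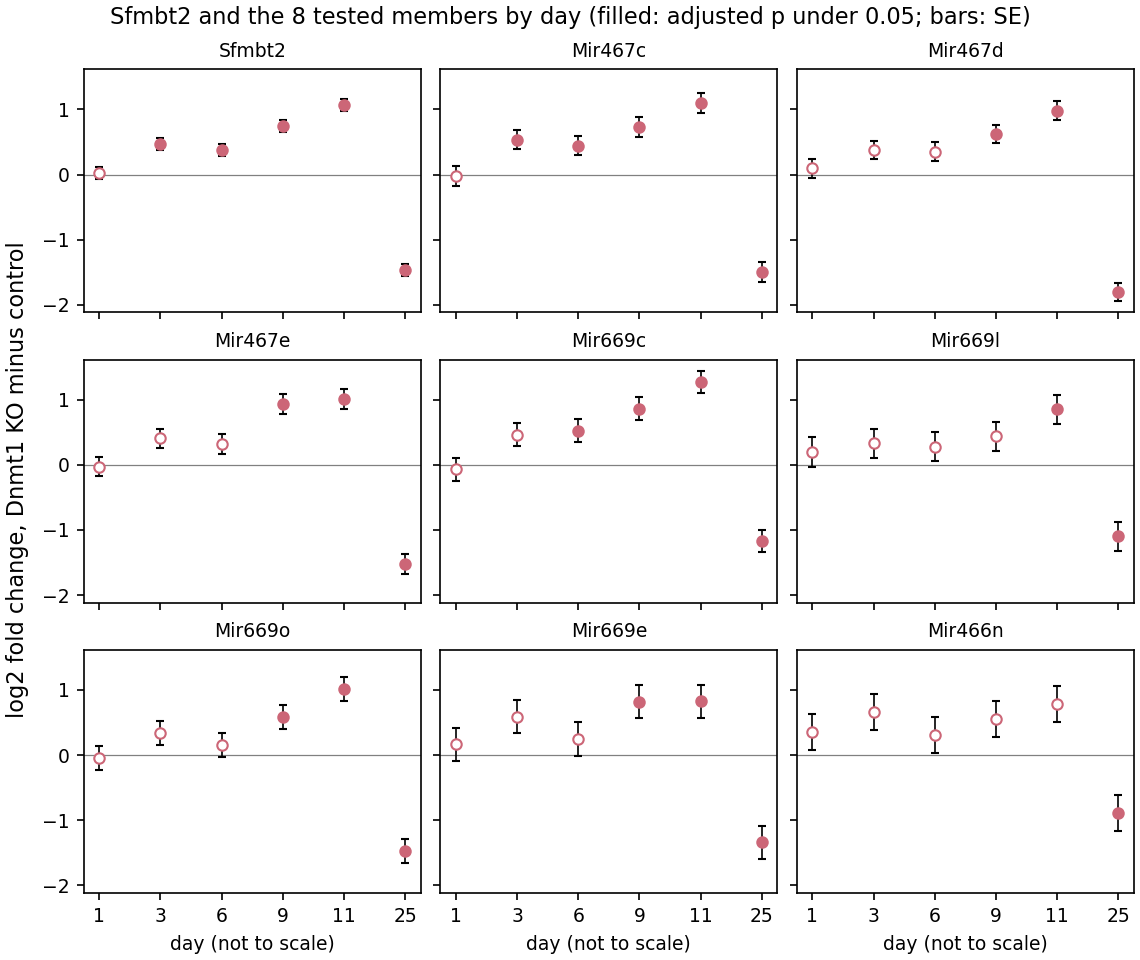
Log2 fold change of Dnmt1 KO minus control by day for Sfmbt2 and the 8 tested members (points, with the SE of the fit as bars; filled where the adjusted p is under 0.05). Values of the members lie between −0.07 and 0.35 on day 1, the value of Sfmbt2 is highest on day 11 (1.07), and all 9 panels lie below 0 on day 25.

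Whether the difference between the genotypes changed between days was tested directly, in 2 contrasts that share the day 11 libraries. Between day 1 and day 11 the difference in Sfmbt2 rose by 1.05 (limma, SE 0.13, adjusted p = 5.22e-08), and 5 of 8 members passed in that direction, where 6.04% of all features did. Between day 11 and day 25 the difference in Sfmbt2 fell by 2.54 (SE 0.13, adjusted p = 3.88e-19), and 8 of 8 members passed, where 9.84% of all features were called lower. Of the 287 tested miRNA features, 82 were called in the first direction and 88 in the second. The members' values of this second change lay between −2.78 (Mir467d) and −1.68 (Mir466n).

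The levels of both genotypes differed between these days. Within a genotype, day and any batch of libraries cannot be told apart, so a rise or fall below is a difference between libraries of 2 days. In control cells Sfmbt2 fell from day 1 to day 11 by 1.39 on the log2 scale (limma, SE 0.09, adjusted p = 2.44e-15), and all 8 members fell, where 18.3% of all features were called lower. So were 113 of the 287 tested miRNA features. The fall of Mir467c was the steepest, from 203, 191 and 198 RPM to 54.7, 57.5 and 36.3 RPM (−2.01, SE 0.15, adjusted p = 8.16e-14). The other members fell by 0.90 to 1.28. In the Dnmt1 KO, Sfmbt2 fell over the same days by 0.34 (limma, SE 0.09, adjusted p = 0.00377), and 2 of 8 members passed, Mir467c (−0.89, adjusted p = 1.15e-05) and Mir466n (−0.84, adjusted p = 0.0191), where 14.1% of all features were called lower. So were 62 of the 287 tested miRNA features. Mir669c (0.31) and Mir669o (0.17) did not pass. Without Dnmt1 KO day 11 replicate 3 the value of Sfmbt2 was −0.28 (adjusted p = 0.0616), without Dnmt1 KO day 1 replicate 3 it was −0.28 (adjusted p = 0.057), and 1 member passed without either of these, without Dnmt1 KO day 1 replicate 2 or without Dnmt1 KO day 11 replicate 2. Without the filter it was −0.26 (adjusted p = 0.372).

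From day 11 to day 25 the values of the genotypes moved in opposite directions, and here too day and batch cannot be told apart. In either direction, 59.3% of all features were called in control and 50.9% in the Dnmt1 KO. In control, Sfmbt2 rose by 0.83 (limma, SE 0.09, adjusted p = 4.86e-10), and 4 of 8 members passed, where 25.5% of all features were called higher. These were Mir467c (1.25), Mir467e (0.90), Mir669c (0.85) and Mir467d (0.56). In the Dnmt1 KO, Sfmbt2 fell by 1.71 (limma, SE 0.09, adjusted p = 8.56e-19), and 8 of 8 members fell, by 1.35 (Mir467c) to 2.23 (Mir467d), where 26.3% of all features were called lower. Of the 287 tested miRNA features, 81 were called higher in control and 126 lower in the Dnmt1 KO.

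Marker lists of other cells differed between the genotypes on several days. A list of 7 miRNAs known from feeder fibroblasts and mesenchyme had 6 in the table and 5 with reads on each day before day 25. Its summed level was 18770 to 20980 RPM in control and 19150 to 22030 RPM in Dnmt1 KO on day 1. It was higher in the Dnmt1 KO on day 3 (34070 to 44690 against 22850 to 23330 RPM), on day 6 (23730 to 26050 against 14590 to 15760 RPM), on day 9 (42350 to 48040 against 21900 to 29200 RPM) and on day 11 (22800 to 25850 against 18580 to 20500 RPM). On day 25 it was lower in the Dnmt1 KO (6923 to 8020 against 8945 to 10080 RPM). Mir143 and Mir21 made up most of it. The defining marker Mir214 was at 101 RPM in control on day 11 and at 0.598 RPM on day 25, and at 134 and 2.13 RPM in the Dnmt1 KO, while Mir199a-1 was at 0 in both. A list of 14 miRNAs of differentiated cells, 11 of them in the table, was higher in the Dnmt1 KO on days 1 to 11, with 1123 to 1158 RPM in control and 1219 to 1421 RPM in Dnmt1 KO on day 11, and overlapped on day 25 at 47.8 to 77.1 and 53.1 to 65.3 RPM. The ESC list stood at 126100 to 128700 RPM in control and 110800 to 118600 RPM in Dnmt1 KO on day 11, and at 176200 to 209800 and 136700 to 141600 RPM on day 25. The part of these shifts in the results of the cluster was not tested. Between genotypes, the feeder list and the cluster were both higher in the Dnmt1 KO on days 3 to 11 and both lower on day 25. Between days 1 and 11 in control, where the cluster fell, the feeder list overlapped between the days. From day 11 to day 25 in control, where the cluster rose, the list was lower on day 25. In the Dnmt1 KO, where the cluster fell over both spans, the list was higher on day 11 than on day 1 and lower on day 25 than on day 11.

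By their titles, the R1 libraries gave the same order of the groups on days 3 to 11. The direction rests on the titles, since the genotype tag says the opposite in 24 of these libraries. Their recovered read counts were even in 95.4% to 96.9% of features, against 35.99% to 46.2% in the libraries without the suffix. What the suffix means is not given, and they were not counted as further replicates. The members summed there to 199 ± 20.47 RPM in the day 11 libraries titled WT and 421 ± 24.9 RPM in Dnmt1 KO (mean ± SD, n = 3), and to 350 ± 13.8 and 542 ± 39.9 RPM on day 9. In a fit of these libraries alone, Sfmbt2 had 1.15 on day 11 (limma, adjusted p = 3.67e-09) and 0.73 on day 9 (adjusted p = 4.47e-05), but 0.41 (adjusted p = 0.0634) on day 3 and 0.26 (adjusted p = 0.202) on day 6.

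In AGO2-bound small RNA the cluster was higher in the libraries titled Dnmt1 KO than in those titled control. The direction rests on the titles, since the genotype tag of these 8 libraries says the opposite. The members summed to 913, 1108, 409 and 403 RPM in control and to 2279, 1815, 1499 and 1157 RPM in Dnmt1 KO, a 2.38-fold difference of the means without overlap. Replicates 1 and 2 of the control lay more than 2-fold above replicates 3 and 4. Sfmbt2 had a log2 fold change of 1.098 (unpaired limma over 456 features, SE 0.34, adjusted p = 0.034). Of the 10 members tested, 7 passed (4 with voom), where 24.8% of all features were called higher, and the median of the 10 was 1.19 against 0.10 over all features. Among the 261 miRNA features tested in AGO2, 84 were called higher. The 7 were Mir669l (1.56), Mir466n (1.52), Mir669e (1.52), Mir467e (1.38), Mir669o (1.24), Mir467c (1.07) and Mir669h (0.81). Mir467d, the most abundant in AGO2, had 453, 567, 209 and 209 RPM in control and 904, 773, 757 and 549 RPM in Dnmt1 KO (0.91, SE 0.32, adjusted p = 0.0528), and its groups overlapped. Mir669c (1.08, adjusted p = 0.0903) and Mir4660 (1.14, adjusted p = 0.118) did not pass either. With the replicate number as a block, Mir467d (adjusted p = 0.0202) and Mir669c (adjusted p = 0.0202) passed and Sfmbt2 had an adjusted p of 0.00464.

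The AGO2 result rested on single libraries and on how replicates were counted. The value of Sfmbt2 was 0.81 (limma, adjusted p = 0.111) without Dnmt1 KO replicate 1, 0.97 (adjusted p = 0.0927) without Dnmt1 KO replicate 2, 0.99 (adjusted p = 0.0678) without Dnmt1 KO replicate 3, 0.94 (adjusted p = 0.0954) without control replicate 3 and 0.88 (adjusted p = 0.0842) without control replicate 4. In these fits 0, 2, 3, 1 and 1 members passed, and 4 passed without Dnmt1 KO replicate 4. With replicates 1 and 2, and 3 and 4, averaged to 2 samples per genotype the adjusted p of Sfmbt2 was 0.258 and no member passed, while a term for these subsets gave 0.000833 and 9 members. Without a filter on low values Sfmbt2 had 0.19 (limma, adjusted p = 0.852) and no member passed. The feeder list was at 6193 to 14780 RPM in the control and 14760 to 29770 RPM in the Dnmt1 KO libraries of AGO2, and its part in the result was not tested.

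The make-up of the cluster's reads differed between AGO2 and total small RNA. The miR-467 family held 64.1 ± 3.18% of the members' reads over the 36 time course libraries (mean ± SD) and 82.05 ± 3.804% over the 8 AGO2 libraries. The miR-669 family held 31.7 ± 3.202% and 13.8 ± 2.96%. Mir467d took 12.2% to 26.8% of the members' reads in the time course and 39.7% to 51.7% in AGO2. Mir669c took 8.15% to 24.7% in the time course and 1.80% to 3.92% in AGO2. Neither miRNA overlapped between these sets of libraries. Per length, Mir467d stood at 6500 ± 3018 RPKM in AGO2 and Mir467c at 3258 ± 1805 RPKM. The means over the 36 time course libraries had the opposite order, but not those of every day. On day 11 Mir467c and Mir467d had means of 49.5 and 47.8 RPM in control, and of 99.6 and 89.9 RPM in Dnmt1 KO. With spans of 97 and 85 bp, Mir467d was the higher per length on that day. In the means over each set, Mir669c was at place 4 of the 10 in the time course and at place 7 in AGO2. Between genotypes the share of the miR-467 family overlapped on day 11, at 60.5 ± 3.51% in control and 59.4 ± 0.664% in Dnmt1 KO (n = 3), and on day 25, at 66.0 ± 1.25% and 62.2 ± 5.94%. In AGO2 it was 83.5% to 85.3% in control and 73.5% to 83.3% in Dnmt1 KO, without overlap. The 8 AGO2 and 36 time course libraries are separate sets with no shared label of a day, and their difference was described and not tested.

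**Figure D4:**
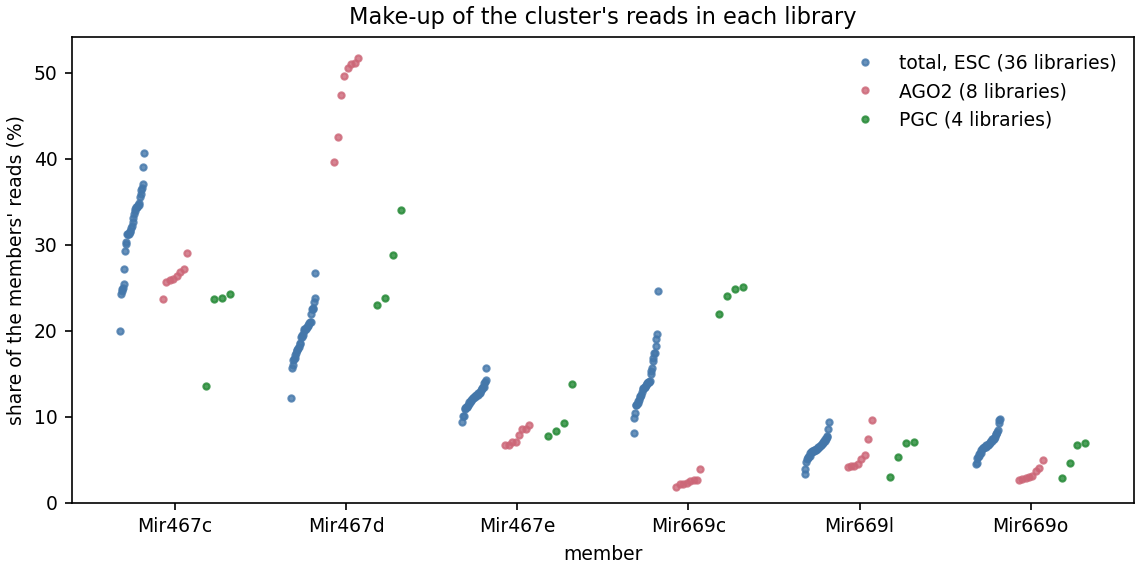
Share of the members' reads (y axis, %) taken by 6 members in each library of total ESC small RNA (36), AGO2 (8) and PGCs (4, without the R1 suffix), with points sorted by value within each set. Mir467d lies at 39.7% to 51.7% in AGO2 and at 12.2% to 26.8% in total ESC small RNA, and Mir669c shows the reverse order.

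The PGC libraries held reads of the same miRNAs. Intervals there are 95% Wilson intervals and cover counting error only, with reads taken as independent. In the 3 R1 libraries of PGCs, recovered counts were even in 89.7% to 96.4% of features, so that their intervals may be too narrow. The members summed to 232 RPM (215 to 251) in the E13.5 female library, 261 RPM (243 to 280) in the E13.5 male, 203 RPM (188 to 218) in the E14.5 female and 208 RPM (188 to 231) in the E14.5 male. Each level rests on 1 library. The ESC controls had group means of 203 RPM on day 11 and 330, 394, 455, 529 and 535 RPM on days 9, 25, 6, 1 and 3, and the Dnmt1 KO had 127 RPM on day 25. Mir669c took 25.08% (21.9 to 28.5), 22.01% (19.2 to 25.05), 24.8% (21.8 to 28.2) and 24.1% (19.98 to 28.8) of the members' reads in the same order, and Mir467d took 34.1% (30.6 to 37.8), 28.8% (25.7 to 32.1), 22.96% (19.99 to 26.2) and 23.8% (19.7 to 28.5). Mir466n had 0, 2, 5 and 5 reads. Of the 3 R1 libraries of PGCs, E14.5 male had 248 RPM (222 to 276), E13.5 female 192 RPM (127 to 291, 22 reads) and E13.5 male no member read in 60317 reads, for which the floor of 3 reads is 49.7 RPM and the Wilson upper bound 63.7 RPM.

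Among protein-coding and miRNA features, the surrounding megabase held little else to compare, and other kinds of feature were not examined. Within 1 Mb on either side of Sfmbt2, 1 other feature of these kinds passed the filter in the time course, and none did in AGO2. This was Atp5c1, which encodes a subunit of the mitochondrial ATP synthase. It passed in none of the 6 comparisons of genotypes by day, with −0.28 on day 25 (limma, SE 0.36, adjusted p = 0.576) and 0.45 on day 11 (adjusted p = 0.634). Its only call among the 12 time course contrasts was a fall from day 11 to day 25 in the Dnmt1 KO (−0.86, adjusted p = 0.0466).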

How the data were processed

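The authors trimmed small RNA reads, kept 20 to 24 nt, aligned them to NCBIM37 with Bowtie2, counted overlaps in SeqMonk and deposited 1 table of RPKM values for 32101 features in 83 libraries. The submitters' processing notes name Trim Galore 0.3.5 and Bowtie2 2.2.9. How reads with several matches and strand were treated is not given in the sources used here.

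RPKM was multiplied by feature length to give RPM. In low values, 100% were whole multiples of 1 read within 5% of a step, so reads were recovered. Scaling used TMM factors (log ratios trimmed by 30%, abundance by 5%). Features with 10 RPM in at least 3 libraries (2582 in the time course, 456 in AGO2) were tested with limma 3.58.1 (R 4.3.3), trend, on log2(RPM + 1), which understates the change of low features. The code was tested on simulated data. Since RPKM values were deposited, no count model was the main test. voom on recovered reads was an alternative. The adjusted p threshold was 0.05. Sums over members, families and composition were not tested as such. The tested Sfmbt2 feature holds almost only member reads, so its test stands close to a test of the cluster's sum.

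Named were Sfmbt2, the members passing either filter, family sums, family features elsewhere and protein-coding or miRNA neighbours within 1 Mb. Members, lists and tests were chosen with earlier results of these data known. A floor of 3 reads marks values too low for a fold.

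In AGO2 each of the 4 same-numbered pairs correlated in its deviations from the group means (r = 0.194 to 0.386). The main AGO2 fit left the replicate numbers out, and a fit with them as a block is given beside it. Not every library correlated best with its own number: r was 0.361 for control 1 with Dnmt1 KO 2 and 0.385 for control 3 with Dnmt1 KO 4, so that replicates 1 and 2, and 3 and 4, also deviated together. In the time course r was −0.066 to 0.047 and numbers were not taken as pairs. Among 48 replicate pairs, none agreed within sampling noise (lowest chi-square per degree of freedom 2.28).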

Additional observations from a re-analysis of the deposited data

Results flagged for a closer look

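The difference between Dnmt1 KO and control changed between days, by a test of the change itself (limma, adjusted over 2582 features). From day 1 to day 11 it rose by 1.05 on the log2 scale for Sfmbt2 (adjusted p = 5.22e-08), by 1.34 for Mir669c (adjusted p = 0.000113), by 1.13 for Mir467c (adjusted p = 0.000175), by 1.06 for Mir669o (adjusted p = 0.00493), by 1.03 for Mir467e (adjusted p = 0.000559) and by 0.89 for Mir467d (adjusted p = 0.00198). From day 11 to day 25 the change was −2.54 for Sfmbt2 (adjusted p = 3.88e-19), −2.78 for Mir467d, −2.61 for Mir467c, −2.53 for Mir467e, −2.49 for Mir669o, −2.44 for Mir669c, −2.16 for Mir669e, −1.95 for Mir669l and −1.68 for Mir466n, with adjusted p of the members between 2.70e-14 and 0.00159.

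The 2 libraries titled "none", which the comparisons did not use, held member reads as well. They had 50 reads in the control, or 874.8 RPM (95% Wilson interval 663.7 to 1153), and 6 reads in the Dnmt1 KO, or 610.4 RPM (279.8 to 1331). No library of the AGO2 groups stood apart from its group in the values of the cluster, by Dixon's test at its 95% critical value for 4 samples, and groups of 3 were not tested. The test looks for 1 extreme library. It cannot show a split into pairs, such as that of the AGO2 controls (913 and 1108 against 409 and 403 RPM).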

How the results depend on the processing

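Of the alternative values of 33 main results, 405 kept direction and call (counts within 1.5 times), 18 fell short of the threshold, 41 moved and 2 reversed. Of 1063 alternative values of 66 called member values 930 kept theirs, 133 fell short of the threshold and 0 reversed. Where values differ below, the cause was not tested.

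Without a filter on low values Sfmbt2 fell short of the threshold on day 3 (0.42), on day 6 (0.33), for Dnmt1 KO from day 1 to 11 (−0.26) and in AGO2 (0.19), and the members called were 0 on day 3, 0 on day 6, 0 in AGO2, 3 for the change from day 1 to 11 and 1 for Dnmt1 KO from day 1 to 11. In the R1 libraries Sfmbt2 had 0.41 on day 3, 0.26 on day 6 and −0.36 for Dnmt1 KO from day 1 to 11, all short of the threshold, with 0, 1 and 3 members on days 3, 6 and 9, 3 for the change from day 1 to 11, 4 for control and 1 for Dnmt1 KO from day 1 to 11. With voom 4 members passed on day 3, 5 on day 25 and 4 in AGO2. With each day fitted alone 5 passed on day 25. With miRNA features only, 0 passed on day 3 and 0 on day 6, and Sfmbt2 has no value there. On day 6 library totals gave 4 members and median-ratio factors 0. Library totals moved the median of all features on day 6 from 0.14 to 0.23, and in AGO2 from 0.10 to 0.34. With AGO2 subsets averaged, Sfmbt2 had 1.098 (limma, adjusted p = 0.258) and 0 members passed. The log2 ratio of the summed members was 0.39 on day 6, 0.74 on day 9 and −1.52 on day 25 with TMM scaling, against 0.49, 0.63 and −1.63, and 0.31 on day 6 in R1.

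Leaving out 1 library, Sfmbt2 ranged from −0.034 to 0.053 on day 1 (its sign turned in the fit lacking the third Dnmt1 KO library, and, at −0.012, in the fit lacking the third control library), 0.24 to 0.45 on day 6, −0.34 to −0.28 for Dnmt1 KO from day 1 to 11 and 0.81 to 1.31 in AGO2. The members called ranged from 0 to 1 on day 3, 0 to 2 on day 6, 1 to 2 for Dnmt1 KO from day 1 to 11 and 0 to 8 in AGO2.

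With the replicate number as a block, 9 members passed in AGO2, and no call of Sfmbt2 changed (day 3 adjusted p = 0.0024, day 11 adjusted p = 9.60e-10, limma). In the time course the numbers did not pair the libraries, and the block left every count of members as it was. Depth limits Mir466n and Mir669e on day 25 and all members with 20 reads or fewer.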
